A study of Mus musculus with 1 sample.

Results

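The genes described here are those of the cytosolic ribosomal proteins in a single-cell library of mouse MC38 tumors, a colon adenocarcinoma line grown under the skin of syngeneic mice. Members were taken by symbol: Rpl or Rps followed by a digit, together with Rpsa, Rplp0, Rplp1 and Rplp2, without -ps pseudogene symbols and without the S6 kinase genes. The rule gave 86 of the 32285 genes of the matrix, 52 named for the large subunit and 34 for the small subunit. It used no measured value. One of the 86, Rps19bp1, encodes a protein that binds Rps19 and is not itself a ribosomal protein, while genes such as Fau and Rack1 encode ribosomal proteins and lie outside the rule. The study addressed how tumor cells shape the immune cells around them, and the library held the control arm: cells of 5 tumors from female C57BL/6J mice, pooled in equal proportions and labelled as wild type, which was taken to mean tumor cells with a non-targeting shRNA. The pool from knockdown tumors was not analysed here.

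A ribosome joins ribosomal RNA and a set of ribosomal proteins into a large subunit, which forms peptide bonds, and a small subunit, which reads the message. In growing mammalian cells the messages of these proteins are among the most abundant of all, and they are translated as a group. Most carry at their 5′ end a C followed by an unbroken run of C and T letters, the TOP motif, through which mTORC1 and Larp1 set their translation. Sequences around the annotated starts came from RefSeq for the GRCm38.p6 build, where 65 of 85 members (Rps19bp1 left out) were matched. A C at the start followed by at least 4 letters C or T was present in 14 of these 65 genes (21.5%) and in 3.0% of 26960 other genes, searched on the strand of each gene. The match depends on where the start was annotated, and a run of at least 8 letters C or T within 15 bases on either side of the start was present in 41.5% of the members and 13.8% of the others. None of the 5 matched genes among the 8 most abundant members had the C and its run exactly at the annotated start. To show what the shared start looks like, the 8 matching members with most UMIs are printed 5′ to 3′ with 15 bases before and 15 after the start, the capitals marking the run of C and T from the first transcribed base.
Rps10: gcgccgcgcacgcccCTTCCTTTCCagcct
Rps18: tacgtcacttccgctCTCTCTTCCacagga
Rpl28: ccgcctctcgtgtctCTCTTTCCgtctccg
Rpl35a: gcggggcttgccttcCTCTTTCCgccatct
Rps15a: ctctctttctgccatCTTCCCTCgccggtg
Rpl15: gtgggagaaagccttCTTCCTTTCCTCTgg
Rpl14: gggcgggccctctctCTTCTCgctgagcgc
Rplp2: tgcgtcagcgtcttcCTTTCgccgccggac
The runs were 5 to 13 letters long within the printed window, the shortest in Rplp2 and the longest in Rpl15. The Rps10 start lies in chr17:27635230-27635259 on the minus strand and that of Rpl15 in chr14:18270972-18271001 on the minus strand. No sequence was used to choose or to rank the members.

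The library held 5307 cells with 511 to 231902 unique molecular identifiers (UMIs, each 1 captured RNA molecule) per cell, and 4443 cells with a median of 10332 UMIs were kept. With 1 library there are no replicates. All values below compare groups of cells within that library, no test was run, and the 95% intervals (Clopper-Pearson for shares, exact conditional for ratios) cover counting error only. Cell groups came from clusters made without the members, so that their levels did not shape the groups, and were named from marker lists. Xist, made by cells of the female hosts, stood at 2.99 CPM (UMIs of a gene per 1000000 UMIs of the group) in tumor-like, 789 in macrophage-like, 725 in T-like and 504 in Col1a2-led stromal cells. Krt18, an epithelial keratin on the tumor-like list, had 0 UMIs in tumor-like cells, although the line is labelled as epithelial. Transcripts of other cells were present at a low level in each group. Rhox5, a homeobox gene on the tumor-like list, stood at 699 CPM in tumor-like, 38.2 in macrophage-like, 49.6 in T-like and 114 in Col1a2-led stromal cells. Shisal2b and Hmga2 of that list were also highest in tumor-like cells among these groups. Cdkn2a, on the same list, went the other way in part. It was higher in T-like (39.2 CPM) and Col1a2-led stromal cells (20.2) than in tumor-like cells, and lower in macrophage-like cells (2.25). The part of transcripts of other cells in the values below was not tested.

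Together the 86 members took 25182891 of 93706531 UMIs of the kept cells, or 26.9%. The share was spread over many genes: 82 members had at least 10000 UMIs each, and the 10 most abundant held 23.4% of all member UMIs. The share differed between cell groups. Of the UMIs of tumor-like cells 29.0% (29.03 to 29.05%, 1699 cells) came from members, and of those of macrophage-like cells 17.5% (17.43 to 17.47%, 1272 cells). T-like cells stood near tumor-like cells at 27.7% (27.55 to 27.80%, 84 cells) and Col1a2-led stromal cells near macrophage-like cells at 18.8% (18.7 to 18.9%, 103 cells). Dendritic cell-like (DC-like) cells at 23.0% (22.9 to 23.1%, 43 cells) and monocyte-like cells at 20.9% (20.8 to 20.9%, 223 cells) lay between these. The spread between cells was far wider than the counting error. The middle 50% of tumor-like cells ran from 25.1 to 31.8% and that of macrophage-like cells from 14.01 to 19.7%, so these quartile ranges did not overlap. Those of T-like cells (20.7 to 32.2%) and monocyte-like cells (17.1 to 22.9%) overlapped with each other.

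**Figure D1:**
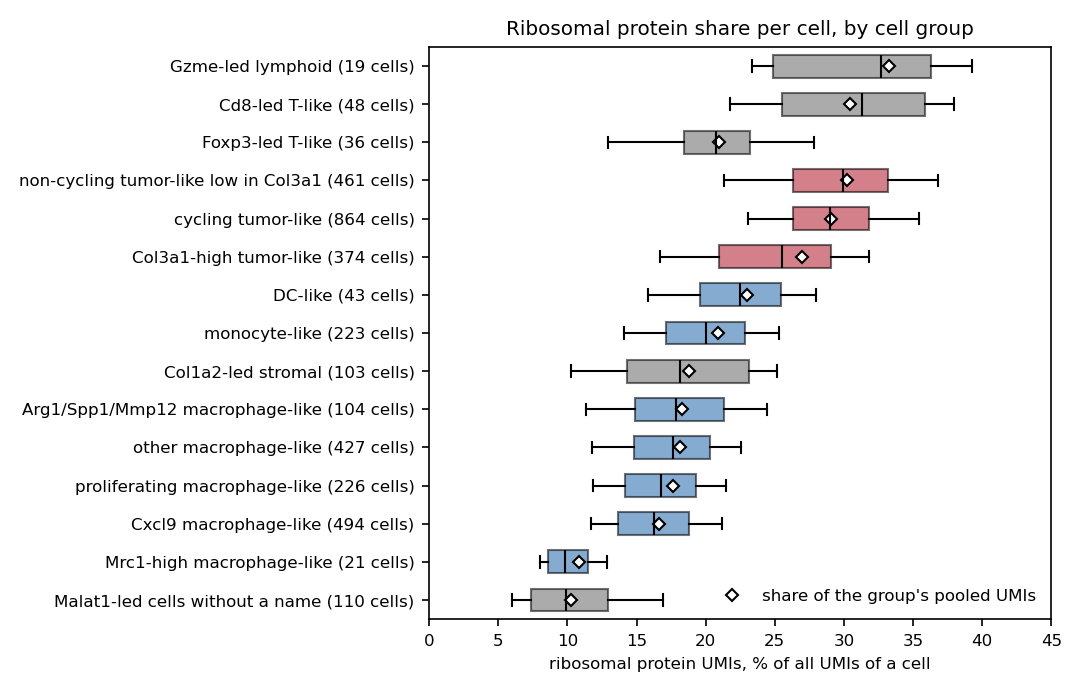
Share of ribosomal protein UMIs per cell (x axis, percent of all UMIs of the cell) for 15 groups of cells of 1 library; boxes show quartiles and median, whiskers the 10th and 90th percentiles over cells, diamonds the share of the group's pooled UMIs. The tumor-like groups (red) sit at 27.0 to 30.2% and the 5 macrophage-like groups (blue, as are monocyte-like and DC-like cells) at 10.8 to 18.3%.

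Within T-like cells the share differed by subset. The 48 cells of the cluster with more Cd8a than Cd4 had 30.4% (30.3 to 30.6%) and the 36 cells of the Foxp3-led cluster had 20.97% (20.8 to 21.2%), a ratio of 1.45 (1.43 to 1.47). Foxp3 is the factor that defines regulatory T cells. The leading genes of its cluster also held Il2ra, Areg, Il13, Il2 and Cxcl2, and its cells were not named as regulatory T cells. Median depth was 6407 UMIs in the Cd8-led and 3652 in the Foxp3-led cells, and with cells thinned to 1000 UMIs the shares were 30.99% and 20.8%. Of the 80 members with at least 50 UMIs over both, 30 were at least 1.5-fold higher in the Cd8-led cells, against 14.2% of 1321 genes of that count, and 0 were 1.5-fold lower, against 22% of genes. Rpl4 stood at 1371 and 671 CPM (ratio 2.04, 1.63 to 2.58), whereas Rpl38 stood at 2512 and 2543 CPM (ratio 0.99, 0.87 to 1.12). A Gzme-led lymphoid cluster of 19 cells, whose leading genes also held mast cell proteases and which therefore kept no cell type name, had the highest share of any group at 33.3% (33.0 to 33.5%). It also held genes of the natural killer cell list: Ncr1 (370 CPM), Klrb1c (237), Gzma (2810), Eomes (44.4) and Klra4 (212, against 180 in tumor-like cells). The T cell gene Cd3e stood at 9.88 CPM there (2 UMIs) and at 675 in T-like cells. Other genes of the T cell list were lower than in T-like cells but present: Cd3g (153 against 2414 CPM), Cd3d (119 against 1559), Lck (138 against 339) and Trac (59.3 against 975). Cd8a stood at 4.94 CPM there, and Cd8b1 and Cd4 at 0. Another 63 shallow lymphoid cells, median 1087 UMIs, were left without a name. T-like cells and these together had 27.2%.

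The subunits kept a near constant ratio. UMIs of large-subunit members were 1.34 times those of small-subunit members in tumor-like and in macrophage-like cells, 1.29 times in T-like cells, and between 1.27 and 1.42 times in all named groups, the highest value being that of Col3a1-high tumor-like cells.

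Within most groups, deeper cells had a higher share, while between groups depth and share did not keep the same order. Tumor-like cells had a median of 41115 UMIs, macrophage-like cells 10092, T-like cells 5286 and Col1a2-led stromal cells 1035. In tumor-like cells the share went from 23.8% in the 63 cells with 1000 to 5000 UMIs to 25.7% (5000 to 15000), 28.7% (15000 to 50000) and 29.4% in the 653 cells with at least 50000. This rise was uneven over the tumor-like states. Over the ranges from 5000 UMIs up, Col3a1-high cells went from 21.2 to 27.0 and 28.9%. Cycling cells went from 28.7 to 28.9 and 29.1%, and non-cycling cells low in Col3a1 from 28.5 to 29.9 and 30.7%. Of the 63 shallowest cells 27 were Col3a1-high. In macrophage-like cells the share went from 14.3% to 17.05% and 18.5% over the ranges up to 50000 UMIs. In the Arg1/Spp1/Mmp12 state it was 18.5% with 5000 to 15000 UMIs and 18.1% above. The gap to macrophage-like cells was present at like depth. With 5000 to 15000 UMIs, tumor-like cells had 25.7% (25.6 to 25.7%, 235 cells), T-like cells 28.7% (28.5 to 28.8%, 43 cells), monocyte-like cells 21.4% (21.4 to 21.5%, 95 cells) and macrophage-like cells 17.05% (17.02 to 17.07%, 858 cells). T-like cells were then above tumor-like cells, while pooled over all depths they were below, with a ratio of 0.95 (0.95 to 0.96). The mix of states differed at this depth. Of the 235 tumor-like cells 94 were Col3a1-high, with a share of 21.2%, against 374 of 1699 over all depths. Cycling cells had 28.7% there and non-cycling cells low in Col3a1 28.5%. Of the 43 T-like cells 35 were Cd8-led, against 48 of 84 over all depths. The part of this mix in the order of the groups was not tested. Mitochondrial UMIs moved with depth as well, from 5.66% in the shallowest to 2.11% in the deepest macrophage-like cells. The part of cell quality in the share was not tested.

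**Figure D2:**
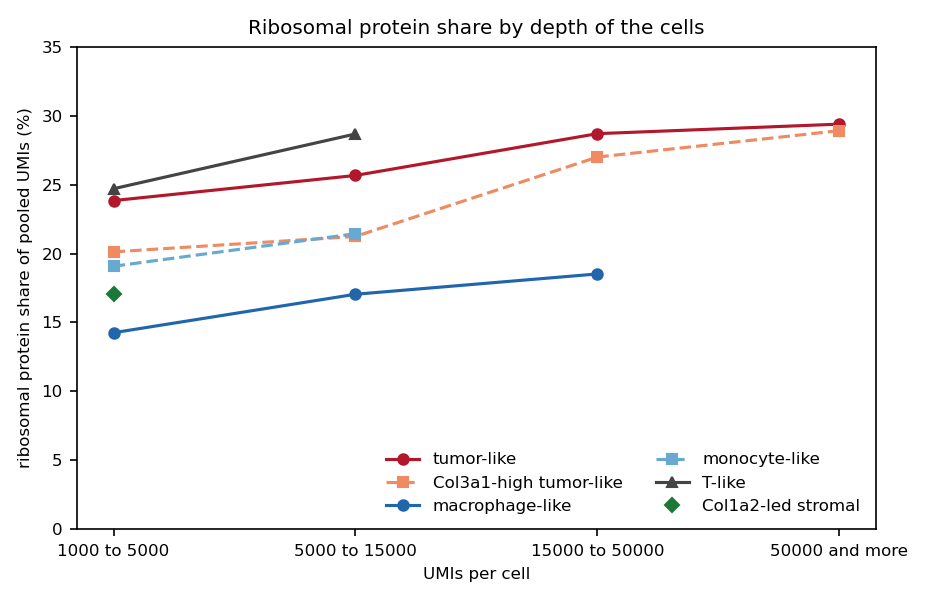
Ribosomal protein share of pooled UMIs (y axis, percent) in cells sorted by their UMIs (x axis, 4 ranges), for 6 groups; a point stands for at least 20 cells. In tumor-like cells the share went from 23.8 to 29.4% and in macrophage-like cells from 14.3 to 18.5%, and at each range that both had the tumor-like point was higher.

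Against macrophage-like cells, tumor-like cells had a share 1.66 times as high (1.662 to 1.666). Of 86 members 83 had at least 50 UMIs over both groups. Among these 80 were above 1 in ratio, 52 (62.7%) were at least 1.5-fold higher and 1 was at least 1.5-fold lower. Over all 12468 genes of that count, 39.5% were 1.5-fold higher and 27% 1.5-fold lower. The median ratio was 1.63 over the members and 1.19 over all genes. Dividing by the median of all genes detected in both groups, 1.19, left a ratio of summed members of 1.40, with 30 members 1.5-fold higher and 2 lower.

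Of the 8 most abundant members 7 are given here, and they showed this difference unevenly. Rpl13 stood at 8339 CPM in tumor-like and 4281 in macrophage-like cells, Rps12 at 8130 and 3433, Rpl19 at 7932 and 3926, and Rpl23 at 6388 and 3937. Rplp1 stood at 6126 and 4651 CPM. The widest gaps among these 7 were those of Rps2, at the messenger entry side of the small subunit, with 8132 and 2782 CPM (ratio 2.92, 2.89 to 2.95), and Rpl8, next to the peptidyl transferase center, with 6258 and 1862 CPM (ratio 3.36, 3.32 to 3.40). Rps19bp1 had the highest ratio, 3.57 (3.30 to 3.87), at 170 and 47.5 CPM. At the other end stood Rps29, a small zinc-binding protein of the small subunit, with 2461 CPM in tumor-like and 3753 in macrophage-like cells (ratio 0.66, 0.65 to 0.66). Rpl39, which lines the exit tunnel, had 1624 and 2110 CPM (0.77, 0.76 to 0.78), and Rps27rt 53.4 and 56.2 CPM (0.95, 0.88 to 1.03). In CPM these 3 were the members below 1.

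By role, the stalk proteins, which recruit translation factors, differed from each other. The scaffold Rplp0 had a ratio of 2.16 (2.13 to 2.18) and the acidic Rplp1 and Rplp2 had 1.32 (1.31 to 1.33) and 1.27 (1.26 to 1.29). Of the pair that carries 5S RNA and can bind Mdm2, Rpl5 had 1.98 (1.94 to 2.01) and Rpl11 1.40 (1.38 to 1.41). Rps6, the substrate of the S6 kinases, had 1.95 (1.92 to 1.98), and Rps3, at the messenger entry, 1.79 (1.77 to 1.81). Rpsa, also known as the laminin receptor, had 2.30 (2.27 to 2.33), Rps27a, made as a fusion with ubiquitin, 1.90 (1.88 to 1.92), and Rpl10, which joins late in assembly, 1.46 (1.44 to 1.47). Partners in one structure thus did not share 1 ratio, and their intervals did not overlap.

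**Figure D3:**
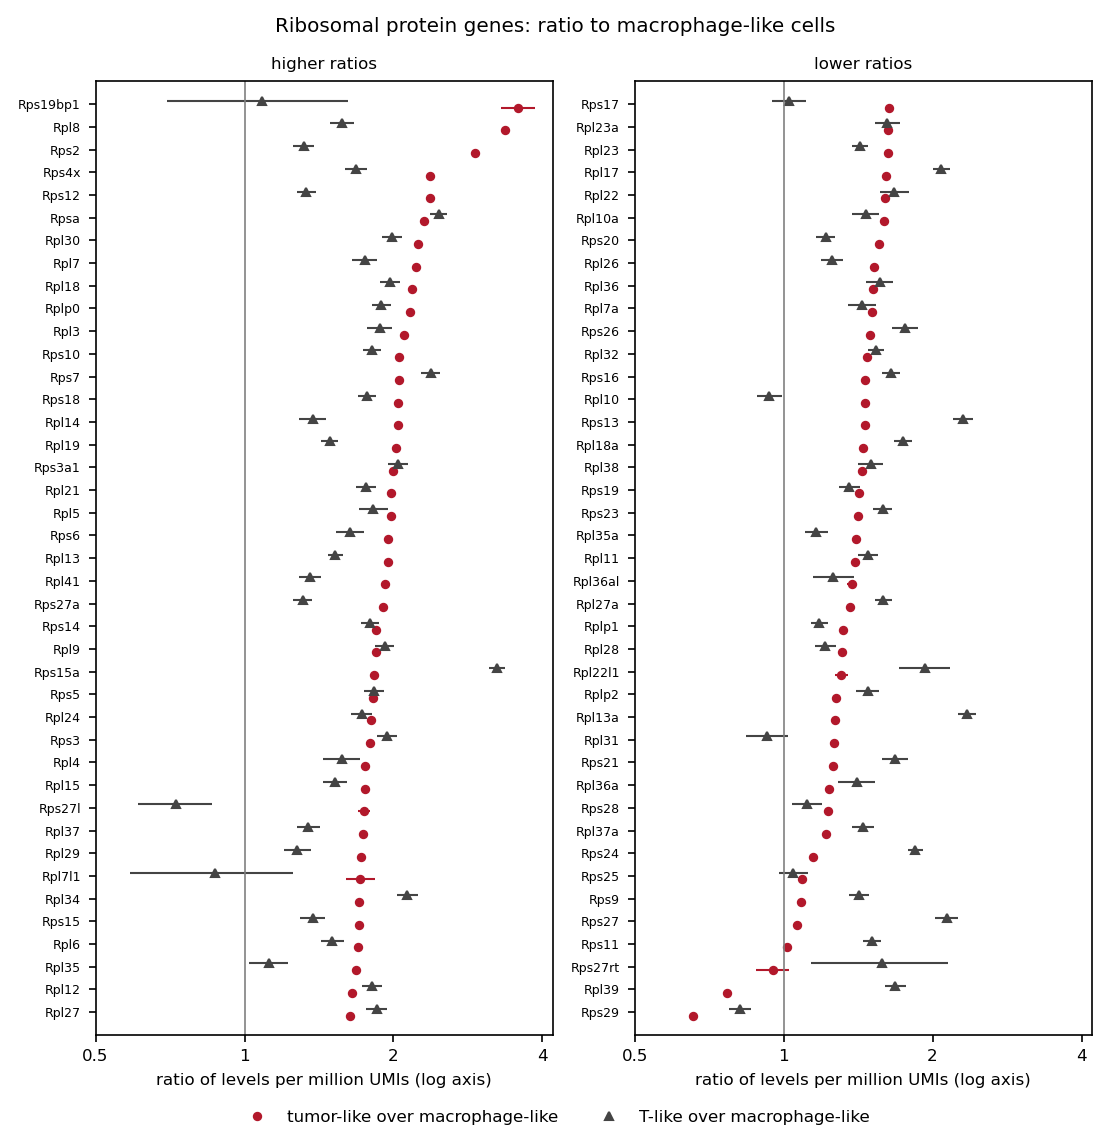
Ratio of the level in CPM (x axis, log scale) to that of macrophage-like cells for 82 of the 83 members with at least 50 UMIs in tumor-like and macrophage-like cells (y axis), in tumor-like (red circles) and T-like cells (gray triangles), sorted by the tumor-like ratio, with 95% counting intervals. Both sets of ratios share the macrophage-like cells. Tumor-like ratios run from 0.66 for Rps29 to 3.57 for Rps19bp1, and T-like ratios from 0.73 for Rps27l to 3.24 for Rps15a.

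Some of these gene differences changed in cells of like depth. The mix of tumor-like states changed there too, with 94 of 235 cells Col3a1-high against 374 of 1699 over all depths. The parts of depth and of this mix were not tested. In cells with 5000 to 15000 UMIs, 77 of 83 members were above 1 and 41 at least 1.5-fold higher in tumor-like cells, against 32.7% of 9575 genes, with a median ratio of 1.496 against 1.11 over all genes. Rpl8 stayed high at 2.32 (2.26 to 2.38) and Rps19bp1 at 3.001 (2.59 to 3.47). Rps29 came to 0.88 (0.86 to 0.90) and Rpl39 to 0.98 (0.95 to 1.01). Rps9 went from 1.08 over all cells to 0.67 (0.64 to 0.69). Over all cells, shorter members had lower ratios: Spearman's rho between coding length and ratio was 0.56 over 83 members, and the 10 members under 300 coding bases had a median ratio of 1.22 against 1.69 for the 73 others. Short genes outside the rule did not differ in this way (median 1.21 over 218 genes, against 1.17 over longer genes). In the cells of like depth rho was 0.11. Other comparisons did not show this loss. There rho was 0.37 for T-like over macrophage-like (0.26 over all cells) and 0.33 for cycling over non-cycling tumor-like cells (0.20). It was 0.38 for monocyte-like and -0.39 for proliferating over non-proliferating macrophage-like cells (-0.06 and 0.07 over all cells). It was -0.39 for Col3a1-high over other tumor-like cells and for Cxcl9 over Arg1/Spp1/Mmp12 cells (-0.39 and -0.35 over all cells). The genes share their libraries and are no independent points, so these are descriptions.

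**Figure D4:**
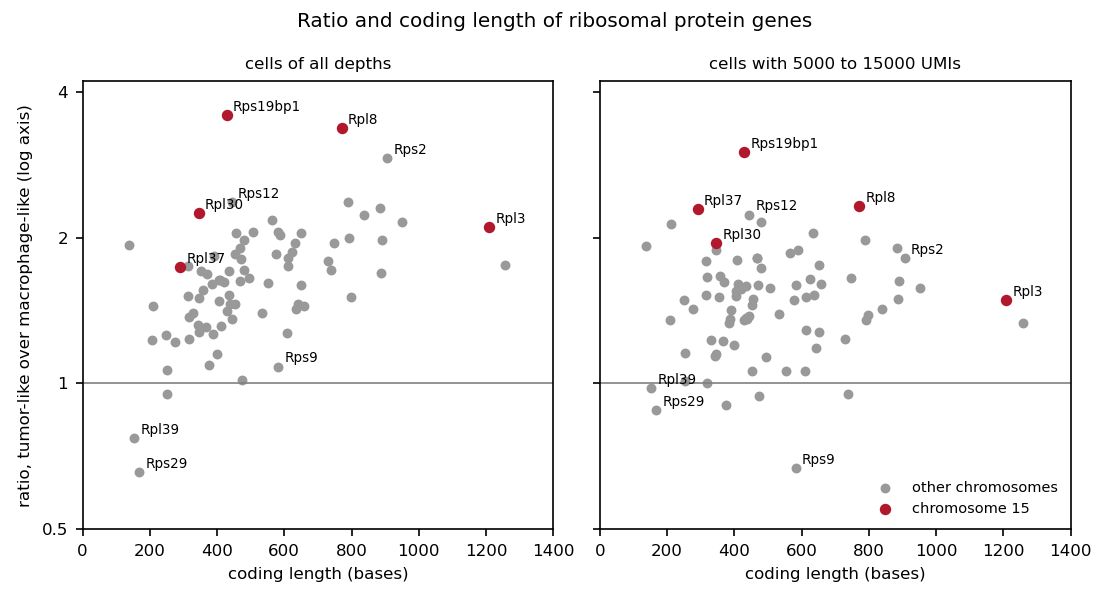
Ratio of tumor-like to macrophage-like levels (y axis, log scale) against coding length (x axis, bases) for 83 members, each a point, over cells of all depths (left) and cells with 5000 to 15000 UMIs (right); the 5 members on chromosome 15 are red. The trend with length on the left, with a rho of 0.56, is nearly absent on the right, with 0.11, while Rps19bp1 and Rpl8 are high in both. The mix of tumor-like states also differs between the panels.

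Members were set beside the other genes of their chromosome. The 5 members on chromosome 15 (Rpl3, Rpl8, Rpl30, Rpl37 and Rps19bp1) had a median tumor-like to macrophage-like ratio of 2.24, and the 511 other genes of that chromosome with enough UMIs had 1.80. The 14 members on chromosome 7, the largest number on any chromosome, had 1.44, and the 921 other genes there 1.01. In cells of like depth the values were 2.29 and 1.67 for chromosome 15 and 1.32 and 1.02 for chromosome 7. On other chromosomes members and neighbors did not stand in the same order: members had 1.71 and other genes 1.02 on chromosome 17 (1.49 and 1.06 at like depth), 1.98 and 1.12 on chromosome 5, and 1.62 and 1.33 on chromosome 11. On each of the 11 chromosomes with at least 4 members the median of the members was above that of the other genes. Gene copy number in the tumor cells was not measured here. Rpl8 lies at chr15:76904078-76906314, plus strand, and Rps19bp1 at chr15:80260615-80264315, minus strand, in the GENCODE annotation of GRCm38.

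Against the same macrophage-like cells, T-like cells had a share 1.59 times as high (1.58 to 1.59). Of 83 members, 47 (56.6%) were at least 1.5-fold higher and 0 at least 1.5-fold lower, against 25.8% and 27.3% of 9755 genes. The median ratio was 1.56 over members and 1.04 over all genes. Rps15a led with 6415 CPM in T-like and 1982 in macrophage-like cells, a ratio of 3.24 (3.12 to 3.36). Rpsa followed with 5370 and 2177 CPM (2.47, 2.37 to 2.57) and Rps7, a small-subunit protein, with 4296 and 1807 CPM (2.38, 2.27 to 2.49). The lowest were Rps27l with 287 and 395 CPM (0.73, 0.61 to 0.86), Rps29 with 3062 and 3753 CPM (0.82, 0.77 to 0.86) and Rpl7l1, whose interval included 1 (0.87, 0.59 to 1.25). Rpl8 and Rps2, far apart in tumor-like cells, had 1.57 (1.49 to 1.66) and 1.32 (1.25 to 1.38). Rpl10 had 0.94 (0.88 to 0.99) in T-like and 1.46 in tumor-like cells.

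Stromal cells led by Col1a2 were compared with tumor-like cells. Their leading genes held Acta2 and Rgs5, known from smooth muscle and pericytes, beside Col1a2 of fibroblasts, and so they were given no cell type name. They were shallow. Of the 103 cells 27 had at least 5000 UMIs and held 84.9% of the UMIs, and 9 cells held 50% of them. Their share was 0.65 times that of tumor-like cells (0.64 to 0.65), with 19.0% in the 27 deep cells and 17.8% in the others. Of 83 members, 41 (49.4%) were at least 1.5-fold lower and 1 at least 1.5-fold higher, against 21.3% and 39.5% of 11839 genes. The median ratio was 0.67 over members and 1.201 over all genes, and with levels divided by the median of genes detected in both groups, 1.14, 65 members were 1.5-fold lower. The 1 higher member was Rpl22l1, a paralog of Rpl22, with 803 CPM in stromal and 427 in tumor-like cells (1.88, 1.71 to 2.07). Rpl39 had 1957 and 1624 CPM (1.21, 1.13 to 1.28) and Rps29 2322 and 2461 CPM (0.94, 0.89 to 0.997). The lowest ratios were those of Rps19bp1 with 51.4 and 170 CPM (0.30, 0.20 to 0.44), Rpl8 with 2498 and 6258 CPM (0.40, 0.38 to 0.42) and Rpl30 with 1908 and 4534 CPM (0.42, 0.40 to 0.45), all of chromosome 15, where the 443 other genes had a median of 0.84. The comparison depended on how the cells were chosen: with cells assigned one by one from the marker lists, the ratio of shares was 0.91 and 0 members were 1.5-fold lower or higher. That setting put 676 cells in the stromal group, with a share of 26.8%, and 943 in the tumor-like group, so other cells were compared. The higher call of Rpl22l1 was also lost in cells with 5000 to 15000 UMIs, of which only 16 were stromal.

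Among tumor-like cells, the 374 cells of the Col3a1-high state, chosen by Col3a1, Dcn and Postn, had 27.0% and the other 1325 cells 29.4%, a ratio of 0.92 (0.917 to 0.919). None of these 3 markers was among the state's 10 leading genes, which held 5 granzyme genes, and 29 of its cells belonged to a small cluster led by immune genes. Without that cluster the ratio was 0.909 and 3 members were at least 1.5-fold lower. Of 83 members, 3 were at least 1.5-fold lower and 0 at least 1.5-fold higher, against 11.9% and 20.4% of 11708 genes. The 3 were Rps2 with 5398 and 8582 CPM (0.63, 0.62 to 0.63), Rps19bp1 with 113 and 179 CPM (0.63, 0.59 to 0.67) and Rpl7l1, a paralog of Rpl7 that acts in ribosome assembly, with 74.97 and 129 CPM (0.58, 0.54 to 0.62). Above 1 stood 16 members, led by Rpl37a with 3231 and 2457 CPM (1.32, 1.30 to 1.33), Rpl36a with 1215 and 973 CPM (1.25, 1.23 to 1.27) and Rpl39 with 1875 and 1583 CPM (1.18, 1.17 to 1.203). The gap was wider in shallow cells. With 5000 to 15000 UMIs the Col3a1-high share was 21.2% over 94 cells, and the ratio of shares was 0.74 with 28 members at least 1.5-fold lower, against 14.2% of the 5081 genes tested in those cells. The state's cells were shallower (median 24421 against 47069 UMIs) and held more Malat1, a nuclear RNA (8423 against 2626 CPM). The part of these in the ratio was not tested. The groups also depended on the filters: with a mitochondrial limit of 10%, the ratio was 1.0001, with doublets kept 0.999 and with cells assigned one by one 0.996, with 0 members 1.5-fold lower in both of the latter. The Col3a1-high state held 737, 803 and 270 cells in these settings, so other cells were compared.

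Cycling tumor-like cells (864) had 29.1% and non-cycling cells low in Col3a1 (461) had 30.2%, a ratio of 0.96 (0.961 to 0.963). Of 83 members 0 passed 1.5-fold in either direction, against 9.63% of 11436 genes higher and 7.08% lower. The members that stood highest were Rpl22l1 (445 and 353 CPM; 1.26, 1.23 to 1.30), Rpl7l1 (135 and 112 CPM; 1.204, 1.14 to 1.27) and Rps19bp1 (187 and 156 CPM; 1.198, 1.15 to 1.25). Rpl39 (1498 and 1819 CPM; 0.82, 0.81 to 0.83), Rpl17 (3760 and 4417 CPM; 0.85, 0.84 to 0.86) and Rps10 (5826 and 6810 CPM; 0.86, 0.85 to 0.86) stood lowest. The direction of the summed members turned with a mitochondrial limit of 10% (1.01), with doublets kept (1.05) and in cells with 5000 to 15000 UMIs (1.01), so it was not stable. With that limit and with doublets kept, the non-cycling group held 22 and 56 cells rather than 461, so other cells were compared. With 5000 to 15000 UMIs, 72 cycling and 69 non-cycling cells were compared. At a finer resolution tumor-like cells formed 7 clusters, with shares of 26.8 to 34.8%. One of the 7, a cluster of 30 cells at 29.2%, was led by granzyme and antigen presentation genes such as Gzmf and Cd74 and held C1qb at 244 CPM, against 19.96 to 38.9 in the other clusters. The highest share was that of a cluster of 171 cells, where mitochondrial UMIs were 0.52% and Malat1 154 CPM, against mitochondrial shares of 1.48 to 3.88% and Malat1 levels of 1421 to 8901 CPM in the other 6.

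The Cxcl9 state, named for an interferon-induced chemokine, had 16.6% (494 cells) and the Arg1/Spp1/Mmp12 state, with genes of arginine use and matrix remodeling, 18.3% (104 cells), a ratio of 0.91 (0.90 to 0.91). Of 83 members 0 passed 1.5-fold in either direction, whereas 32.1% of 7455 genes were higher and 9.74% lower in the Cxcl9 state. The median ratio was 0.89 over members and 1.21 over all genes, and with levels divided by the median of all genes 13 members were at least 1.5-fold lower. The lowest were Rpl9 with 1963 and 2802 CPM (0.70, 0.67 to 0.73), Rpl5 with 955 and 1328 CPM (0.72, 0.68 to 0.76) and Rps3a1 with 1827 and 2499 CPM (0.73, 0.70 to 0.76). The highest were Rpl7l1 with 67.8 and 48.0 CPM (1.41, 1.07 to 1.90), Rps27l with 404 and 290 CPM (1.39, 1.24 to 1.56) and Rps19bp1 with 43.3 and 34.1 CPM (1.27, 0.90 to 1.82). The 21 Mrc1-high cells had the lowest share of any named group, 10.8% (10.65 to 10.97%), which was 0.62 times that of all non-proliferating macrophage-like cells (0.61 to 0.63).

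Monocyte-like cells, with Ly6c2, Ccr2 and Plac8, had 1.199 times the share of non-proliferating macrophage-like cells (1.194 to 1.204), 20.9 against 17.4%. Both of their sub-clusters were above, at 20.3% (121 cells whose leading genes held Chil3 but also the B cell genes Iglc2, Iglc3 and Cd79a) and 21.5% (102 cells with the macrophage genes C1qa and C1qc among theirs). C1qa stood at 2878 CPM in monocyte-like and 8183 in non-proliferating macrophage-like cells, and its part in the ratio was not tested. The shift was broad and shallow: 80 of 83 members were above 1, 74 with an interval above 1, and 0 passed 1.5-fold in either direction, against 7.45% of 9222 genes higher and 17.6% lower. Rpl36al led with 1050 and 726 CPM (1.45, 1.37 to 1.53), followed by Rpl18 with 2815 and 1981 CPM (1.42, 1.37 to 1.47) and Rpsa with 2876 and 2032 CPM (1.42, 1.37 to 1.46). Rplp1 (4615 and 4657 CPM), Rpl36a (788 and 800 CPM) and Rpl12 (2093 and 2176 CPM; 0.96, 0.92 to 1.0002) stood lowest, each with an interval that included 1. In cells with 5000 to 15000 UMIs 82 of 83 were above 1. With cells assigned one by one from the marker lists the ratio of shares was 1.42, but over 401 monocyte-like cells rather than 223.

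Proliferating macrophage-like cells (226) had 17.6% against 17.4% in the non-proliferating ones, a ratio of 1.01 (1.009 to 1.015). Of 83 members 0 passed 1.5-fold in either direction, against 14.7% of 9606 genes higher and 8.19% lower. At like depth the ratio was 0.95, and it was 0.98 with at least 500 genes per cell, so its direction was not stable. Rps27l with 492 and 366 CPM (1.34, 1.27 to 1.43), Rpsa with 2669 and 2032 CPM (1.31, 1.28 to 1.35) and Rps19bp1 with 54.5 and 45.4 CPM (1.201, 1.003 to 1.43) stood highest. Rps27rt with 43.7 and 59.9 CPM (0.73, 0.60 to 0.88), Rps27 with 1149 and 1455 CPM (0.79, 0.76 to 0.82) and Rpl10 with 2302 and 2746 CPM (0.84, 0.82 to 0.86) stood lowest.

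Some paralogs took different shares of their pair in different cell groups. Rpl22l1 took 18.5% of the UMIs of the pair with Rpl22 in tumor-like, 21.8% in macrophage-like and 24.3% (21.9 to 26.7%) in T-like cells, but 37.2% (33.4 to 41.1%) in the Gzme-led lymphoid cluster and 40.9% (37.9 to 43.9%) in stromal cells. In the stromal cells 52 of 103 had an Rpl22l1 UMI. Rps27l, a p53 target, took 31.8% (31.6 to 32.0%) of its pair with Rps27 in tumor-like cells, 22.2% (21.7 to 22.7%) in macrophage-like and 8.85% (7.49 to 10.4%) in T-like cells. Within macrophage-like cells it ran from 14.5% (13.2 to 16.0%) in the Arg1/Spp1/Mmp12 state to 29.98% (28.7 to 31.3%) in proliferating cells. Rpl36al and Rpl36a had near equal levels: Rpl36al took 50.3% in tumor-like, 47.7% in macrophage-like and 57.1% (55.2 to 59.1%) in monocyte-like cells. Reads of near-identical copies may be split or lost in counting, so the levels of such pairs are uncertain. The intronless Rps27rt took 2.78 to 4.08% of its pair with Rps27 in the named groups, with overlapping intervals between most, and Rpl7l1 took 3.66% of its pair with Rpl7 in tumor-like and 4.70% in macrophage-like cells.

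**Figure D5:**
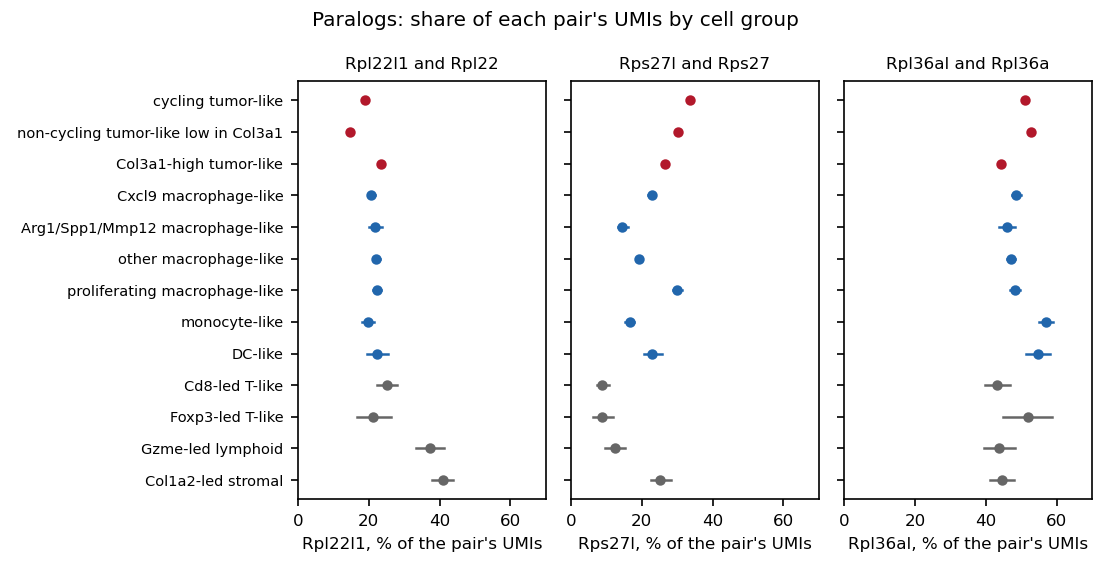
Share of a pair's UMIs taken by the paralog (x axis, percent) for Rpl22l1 with Rpl22, Rps27l with Rps27 and Rpl36al with Rpl36a in 13 cell groups (y axis), with 95% counting intervals; tumor-like groups are red, myeloid groups blue and others gray. Rpl22l1 is highest in stromal cells at 40.9%, Rps27l runs from 8.77% in Foxp3-led T-like to 33.6% in cycling tumor-like cells, and Rpl36al stays between 43.2 and 57.1%.

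A few members were near or at 0. Rpl10l, a testis copy of Rpl10, had 0 UMIs in all kept cells, which in tumor-like cells allows up to 0.0401 CPM at 3 counts, while Rpl10 stood at 3854 CPM. Rpl39l, another testis copy, had 26 UMIs, 17 of them in 7 of the 103 stromal cells (31.2 CPM), 5 in tumor-like and 3 in 1 macrophage-like cell. Rpl3l, the muscle form of Rpl3, had 32 UMIs, of which 17 were in 15 macrophage-like cells (1.24 CPM), 6 in 6 monocyte-like cells (4.45 CPM), 5 in 4 DC-like cells (11.8 CPM) and 1 in a tumor-like cell (0.0134 CPM). These 3 did not reach 50 UMIs and enter none of the counts above.

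The other genes of the translation machinery, from lists chosen with earlier results known, are given beside the members. Between tumor-like and macrophage-like cells, 11 of 15 translation factors with TOP messages were at least 1.5-fold higher and 0 lower (median 1.85), among them Eef1g, a subunit of the elongation factor exchange complex, with 3.97 (3.87 to 4.08) and Npm1, a nucleolar chaperone, with 3.63 (3.56 to 3.70). Eef2, which moves the ribosome along, had 0.68 (0.67 to 0.70) and Tpt1 0.85 (0.85 to 0.86). All 24 ribosome assembly genes were 1.5-fold higher (median 2.62), with Dkc1, of the pseudouridine synthase complex, at 6.24 (5.56 to 7.03). Of 78 mitochondrial ribosomal protein genes 54 were higher and 0 lower (median 1.82). Of 10 genes that control TOP translation 4 were higher and 2 lower (median 1.02), near the 39.5% and 27% of all genes, with Eif4ebp1, an inhibitor of Eif4e, at 2.57 (2.48 to 2.67) and Tsc1, which restrains mTORC1, at 0.57 (0.48 to 0.69). Of the ribosomal proteins outside the symbol rule, Rack1 had 2.01 (1.98 to 2.04) and Fau 0.97 (0.96 to 0.98).

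In T-like against macrophage-like cells, members (median 1.56) and TOP translation factors (12 of 15 higher, median 1.70) stood well above all genes (1.04). Assembly genes had 6 of 24 higher and 2 lower (median 1.22), a share of higher genes near the 25.8% of all genes. Mitochondrial ribosomal protein genes had 11 of 78 higher and 8 lower (median 1.05), both below the 25.8% and 27.3% of all genes. In Col3a1-high against other tumor-like cells, 15 of 24 assembly genes were at least 1.5-fold lower (median 0.59, against 0.91 over members and 1.09 over all genes), with Nhp2 at 0.40 (0.38 to 0.41) and Ncl, nucleolin, at 0.51 (0.49 to 0.52). Npm1 was the 1 of 15 TOP factors past the fold, at 0.51 (0.50 to 0.52). In the Cxcl9 against the Arg1/Spp1/Mmp12 state, members (median 0.89) and TOP factors (0.88) were below and assembly genes above (13 of 22 higher, 1 lower, median 1.62) the median of all genes, 1.21 for that pair. Monocyte-like cells had 5 of 24 assembly genes higher and 1 lower than non-proliferating macrophage-like cells (median 1.15), against 7.45% and 17.6% of all genes. Proliferating macrophage-like cells had 7 higher and 0 lower (median 1.25, against 1.01 over members), with 14.7% and 8.19% of all genes past the fold.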

How the data were processed

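Cells of 5 pooled MC38 tumors were profiled as 1 library with the Chromium Single Cell 3' v3.1 chemistry. The authors deposited UMI counts per gene and cell from Cell Ranger, version 5.0.1 per the file headers, on GRCm38 (mm10), and the submitters' processing notes also name FastQC and Seurat. A UMI stands for 1 captured 3' end, so counts were not divided by gene length, and reads shared by near-identical copies may be lost.

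Kept cells had 200 genes or more and no more than 20% of UMIs from mitochondrial genes (667 exceeded this), and 197 cells with the highest simulated-doublet scores were removed. Log-scaled values of 2000 variable genes, without the members, were reduced to 30 components and clustered (Leiden, resolution 0.5, 20 neighbors), and sub-clustered within tumor, myeloid and lymphoid cells. Clusters were named from marker lists; the rules for applying these were set after seeing the data, and the members, marker lists and gene lists were chosen with earlier results of these data known. UMIs were pooled per group. A gene was counted as higher or lower at a ratio of CPM of at least 1.5 in either direction with at least 50 UMIs over both groups. Named members were the 8 most abundant, 10 of known role, paralogs with their parents, and the 3 highest and 3 lowest of each comparison; members named for their position, depth or T cell subset were chosen after their values were seen. Values of 2 genes of the lists are not reported here. With 1 library no test was made. The ratio and interval steps were tested on simulated counts with known ratios and without variation between cells. Filtering, doublet removal, clustering and naming were not tested in this way. Alternatives covered filters, clustering, depth, thinning to 1000 UMIs, scaling, minimum counts and fold. Matrices and intervals were computed in Python 3.11.15 with scipy 1.17.1, numpy 2.4.6 and pandas 2.3.3. Clustering used leidenalg 0.10.2 on igraph 0.11.9 graphs after scikit-learn 1.9.0 decomposition, and plots came from matplotlib 3.10.9.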

Additional observations from a re-analysis of the deposited data

How the results depend on the processing

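No paired analysis was possible because there is 1 library, and no test was run under any setting. The 8 ratios of shares are named here by their first group, in the order of the report. In every setting that gave a value, the tumor-like, T-like and monocyte-like ratios were above 1 and the stromal and Cxcl9 ratios below 1. The direction of the Col3a1-high, cycling and proliferating ratios turned in some settings. Settings that grouped the cells anew also changed the size of the groups, so their ratios do not compare the same cells. With a mitochondrial limit of 10%, the non-cycling group low in Col3a1 held 22 cells. Of 110 ratios under another setting, 21 moved by less than the counting error, 81 by more and 8 turned. Of 136 counts of members past the fold, 52 of those higher and 48 of those lower stayed within 1.5 times the value in the report. Restricting depth to other ranges than 5000 to 15000 UMIs, leaving out either of 2 tumor-like clusters, and counting members in cells with 5000 to 15000 UMIs were chosen after seeing the data. T-like cells with 15000 to 50000 UMIs, and Cxcl9 against Arg1/Spp1/Mmp12 cells with 1000 to 5000 UMIs, gave no value, having too few cells. The causes of the shifts were not tested, and depth and the small number of T-like, Gzme-led and stromal cells limit what can be told apart. With a mitochondrial limit of 10%, the ratio was 1.67 (tumor-like), 1.704 (T-like), 0.66 (stromal), 1.0001 (Col3a1-high, direction turned), 1.01 (cycling, direction turned), 0.914 (Cxcl9) and 1.18 (monocyte-like). Without a mitochondrial limit, the ratio was 1.67 (tumor-like), 0.611 (stromal), 0.964 (Col3a1-high), 0.983 (cycling), 0.903 (Cxcl9) and 1.01 (proliferating). With at least 500 genes per cell, the ratio was 1.64 (tumor-like), 1.66 (T-like), 0.5997 (stromal), 0.919 (Col3a1-high), 0.968 (cycling), 0.944 (Cxcl9), 1.16 (monocyte-like) and 0.9849 (proliferating, direction turned). With doublets kept, the ratio was 0.688 (stromal), 0.999 (Col3a1-high), 1.05 (cycling, direction turned), 0.886 (Cxcl9) and 1.01 (proliferating). With the members left in the clustering, the ratio was 1.61 (T-like), 0.914 (Col3a1-high), 0.96 (cycling) and 1.01 (proliferating). At a clustering resolution of 0.8, the ratio was 1.67 (tumor-like), 0.916 (Col3a1-high), 0.958 (cycling), 0.957 (Cxcl9) and 1.01 (proliferating). With cells assigned one by one from the marker lists, the ratio was 1.67 (tumor-like), 1.56 (T-like), 0.915 (stromal), 0.996 (Col3a1-high), 0.956 (cycling), 0.931 (Cxcl9), 1.42 (monocyte-like) and 0.986 (proliferating, direction turned). With cells thinned to 1000 UMIs, the ratio was 1.68 (tumor-like), 0.63 (stromal), 0.853 (Col3a1-high), 0.984 (cycling), 1.18 (monocyte-like) and 0.998 (proliferating, direction turned). As means over cells, the ratio was 1.68 (tumor-like), 1.58 (T-like), 0.855 (Col3a1-high), 0.981 (cycling), 1.18 (monocyte-like) and 1.001 (proliferating). Without mitochondrial UMIs in the denominator, the ratio was 1.67 (tumor-like), 1.56 (T-like), 0.644 (stromal), 0.923 (Col3a1-high), 0.954 (cycling), 0.92 (Cxcl9) and 1.02 (proliferating). In cells with 5000 to 15000 UMIs, the ratio was 1.51 (tumor-like), 1.68 (T-like), 0.588 (stromal), 0.743 (Col3a1-high), 1.01 (cycling, direction turned), 0.904 (Cxcl9), 1.25 (monocyte-like) and 0.953 (proliferating, direction turned). In cells with 15000 to 50000 UMIs, the ratio was 1.55 (tumor-like), 0.678 (stromal), 0.921 (Col3a1-high), 0.967 (cycling), 0.953 (Cxcl9), 1.21 (monocyte-like) and 1.002 (proliferating). Only 27 stromal cells had at least 5000 UMIs, 16 of them below 15000, so the stromal ratios of these ranges rest on few cells. In cells with 1000 to 5000 UMIs, the ratio was 1.67 (tumor-like), 1.73 (T-like), 0.714 (stromal), 0.764 (Col3a1-high), 0.913 (cycling), 1.34 (monocyte-like) and 1.04 (proliferating). Without the 171-cell tumor-like cluster of lowest mitochondrial share, the ratio was 1.64 (tumor-like), 0.657 (stromal), 0.933 (Col3a1-high) and 0.945 (cycling). Without the 30-cell tumor-like cluster led by immune genes, the ratio was 0.909 (Col3a1-high).

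With doublets kept, the members past the fold were 0 lower (Col3a1-high). With cells assigned one by one from the marker lists, the members past the fold were 0 higher and 0 lower (stromal), 0 lower (Col3a1-high) and 29 higher (monocyte-like). With cells thinned to 1000 UMIs, the members past the fold were 0 lower (tumor-like), 1 lower (T-like), 5 lower (Col3a1-high), 2 higher and 1 lower (cycling), 2 lower (Cxcl9), 2 higher (monocyte-like) and 2 higher (proliferating). In cells with 5000 to 15000 UMIs, the members past the fold were 0 lower (tumor-like), 0 higher (stromal), 28 lower (Col3a1-high), 1 higher (cycling) and 3 higher (monocyte-like). With levels scaled by the median gene, the members past the fold were 30 higher and 2 lower (tumor-like), 65 lower (stromal) and 13 lower (Cxcl9). With a minimum of 1 UMI, the members past the fold were 3 lower (tumor-like), 3 higher (stromal), 2 higher (Col3a1-high), 2 lower (cycling), 1 lower (Cxcl9), 2 higher (monocyte-like) and 1 higher and 1 lower (proliferating). At a fold of 2, the members past the fold were 16 higher and 0 lower (tumor-like), 9 higher (T-like), 0 higher and 3 lower (stromal) and 0 lower (Col3a1-high).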

Other observations

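Among the kept cells, 4 clusters and 1 lymphoid sub-cluster were left out of the comparisons above. Genes of the tumor-like list were raised in the Malat1-led cluster, those of the erythroid list in the Hbb-bs-led and those of the granulocyte list in the Scgb1a1-led cluster. Malat1-led cells (110) had a ribosomal protein share of 10.2% (10.15 to 10.32%), 0.35 times that of tumor-like cells (0.349 to 0.355). In these cells mitochondrial genes held 10.4% of UMIs, and Malat1, a nuclear RNA, stood at 78616 CPM, against 3445 in tumor-like cells. Cells led by Ctsk, a protease of bone-resorbing cells (383 cells, median 1753 UMIs), had 18.5% (18.4 to 18.6%). Cells led by the hemoglobin gene Hbb-bs (339 cells, median 779 UMIs) had 21.1%, and cells led by Scgb1a1, an airway secretory gene (105 cells, median 727 UMIs), had 15.5% (15.4 to 15.7%). The 63 shallow lymphoid cells had 25.1% (24.8 to 25.3%). In the 667 cells removed for more than 20% mitochondrial UMIs, members held 7.71% of UMIs.

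The 5 pseudogene symbols that the rule left out had 14558 UMIs. Of these, Rpl10-ps3 had 7825, Rpl9-ps6 5611 and Rpl36a-ps1 1122, and the other 2 had 0. Rpl10-ps3 stood at 87.8 CPM in tumor-like, 66.5 in macrophage-like and 55.7 in T-like cells.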
